A study of Mus musculus with 2 samples.

Results

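The genes described here encode the subunits of the oxidative phosphorylation complexes that are made from the nuclear genome. They were chosen by symbol alone, as protein-coding genes named Nduf with a subunit letter and number, Sdha to Sdhd, Uqcr, Cox4 to Cox8 or Atp5, and the rule uses no measured value. The rule found 84 of 43346 gene rows, or 84 of 21474 protein-coding genes: 37 in complex I, 4 in complex II, 8 in complex III, 18 in complex IV and 17 in complex V. Ndufa4 and Ndufa4l2 are counted with complex I by name, although NDUFA4 is now placed in complex IV.

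Oxidative phosphorylation takes electrons from NADH at complex I and from succinate at complex II, passes them through complex III and cytochrome c to oxygen at complex IV, and uses the proton gradient this builds to make ATP at complex V. Complexes I, III, IV and V each join nuclear subunits to subunits encoded in mitochondrial DNA, whereas complex II is wholly nuclear. Several small subunits exist as paralogous forms with different tissue ranges, such as the heart and skeletal muscle forms of complex IV subunits. Postmitotic neurons depend heavily on this pathway, while dividing progenitors rely more on glycolysis.

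Total RNA was sequenced from neural tube, the embryonic precursor of brain and spinal cord, of mouse strain B6NCrl at embryonic day 14.5. A single group of 2 libraries was made, each from 10 ng of RNA with spike-in RNA added, and no genetic or drug treatment is labelled. By their labels each library comes from a single tube, of the first pup of one dam for replicate 1 and of another dam for replicate 2. Both nevertheless carry a label of males and females pooled. Without a second group there is no contrast between conditions, so levels are given per library or as mean ± SD (n = 2), with no p-value.

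Gene rows held 32255343 expected counts in replicate 1 and 25428728 in replicate 2. Neuronal genes were high in both libraries, and Tubb3, a neuronal tubulin, stood at 1292 and 1308 TPM (a per-length share of all transcripts). The libraries differed in markers of neighbouring tissue. Summed over 8 meningeal and fibroblast markers the level was 53.4 TPM in replicate 1 and 997 in replicate 2, and over 8 dorsal root ganglion markers 23.15 and 189 TPM. The 9 endothelial, 8 microglial and 8 pericyte markers summed to 95.6, 91.9 and 123 TPM in replicate 1 and to 220.1, 159 and 251 TPM in replicate 2, and 10 skeletal muscle markers to 49.2 and 24.5 TPM. In bulk tissue, fewer cells of a type and less RNA per cell cannot be told apart.

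Nearly all of the subunit genes were expressed, and at high levels. At 1 TPM or more in both libraries stood 80 of the 84 (95.2%), against 60.8% of all protein-coding genes. The median over the 84 was 365 TPM in replicate 1 and 348 TPM in replicate 2. The median of the 13047 protein-coding genes that reached 1 TPM in both libraries was 20.2 and 22.05 TPM. Together the 84 genes held 4.64% and 4.12% of the TPM of nuclear protein-coding genes. Across the 84 genes, which share both libraries and are not independent replicates, log2(TPM + 1) of the libraries correlated with r = 0.998 (Pearson) and rho = 0.993 (Spearman). The 4 genes below 1 TPM were all complex IV forms: Cox6a2, Cox7b2, Cox8b and Cox8c.

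**Figure D1:**
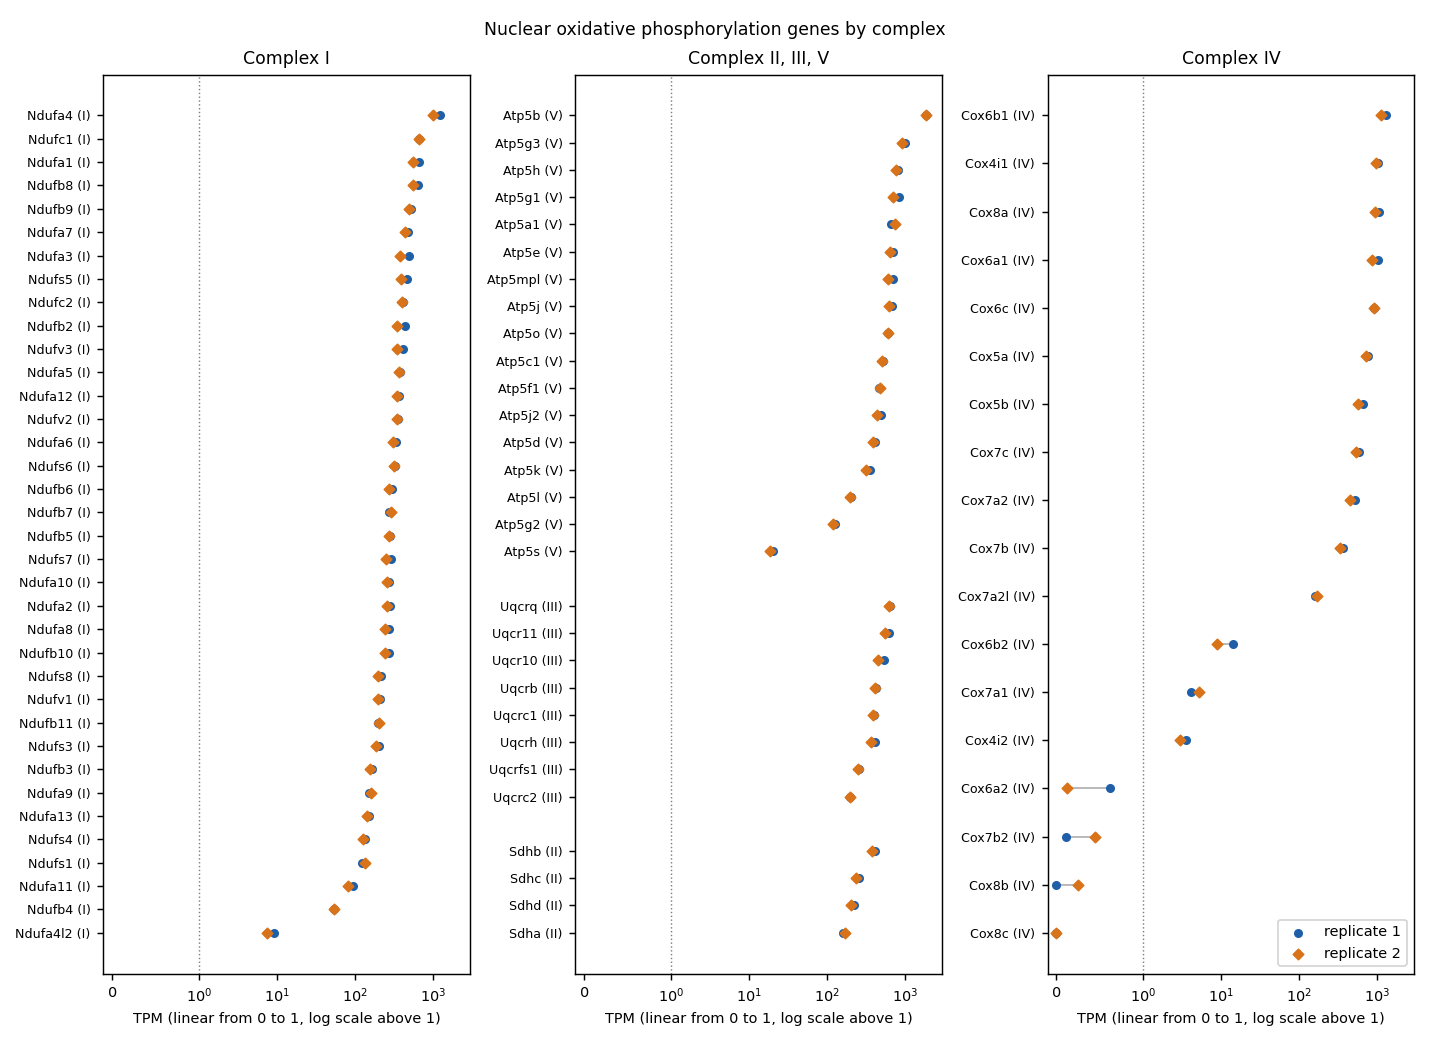
TPM of 83 of the 84 genes, ordered by mean within its complex, on an axis that is linear from 0 to 1 and logarithmic above. Circles are replicate 1 and diamonds replicate 2; the dotted line marks 1 TPM, and Cox6a2, Cox7b2, Cox8b and Cox8c lie to its left.

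Complex V had the highest median and complex II the lowest. Median levels over members were 599 ± 0.537 TPM for complex V (598.7 and 599.45), 415 ± 34.2 for complex IV, 411 ± 14.7 for complex III, 276 ± 4.39 for complex I and 231 ± 14.5 for complex II. Complexes III and IV did not differ beyond their spread: complex IV was the higher in replicate 1 (439.5 against 421 TPM) and the lower in replicate 2 (391 against 401 TPM). Over the 14 complex IV genes that reached 1 TPM the median was 588 TPM, close to complex V. With transcripts annotated as protein-coding alone it was 201 TPM over all 18, an alternative chosen after seeing the data.

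Complex I oxidises NADH through a chain of flavin and iron-sulphur centres held by 7 nuclear core subunits. The core genes ranged from Ndufv2, which holds an iron-sulphur cluster of the NADH-oxidising arm (356 and 347 TPM), to Ndufs1, the largest core subunit (123 and 136 TPM). Ndufs7, which lies beside the site where ubiquinone is reduced (289.7 and 253), Ndufs8 (219.8 and 199), Ndufv1, which binds NADH and flavin (209.7 and 198), and Ndufs3 (206 and 188) had levels between these. Ndufs1 had more TPM in replicate 2, while Ndufv2, Ndufs7, Ndufs8, Ndufv1 and Ndufs3 had less. The median of the 7 core genes was 205 ± 7.23 TPM, below the 308 ± 10.3 TPM of the 28 accessory genes, those without Ndufa4 and Ndufa4l2. Over the 75 subunit genes of at least 50 TPM, log2 TPM fell with log2 effective transcript length (r = -0.44, Pearson, and rho = -0.49, Spearman). The part of length in differences between genes, here and in the other complexes, was not tested.

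Ndufa4 was the highest complex I gene by name at 1246 and 1002 TPM, followed by the accessory genes Ndufc1 (667 and 659 TPM) and Ndufa1 (668 and 557 TPM). Ndufa1, Ndufb11 (197 and 202 TPM) and the complex IV gene Cox7b are X-linked. The lowest were Ndufa4l2 (9.11 and 7.60 TPM), Ndufb4 (54.4 and 53.7 TPM) and Ndufa11, a membrane-arm accessory subunit (94.5 and 81.0 TPM). The remaining accessory genes lay between Ndufs4 (135 and 128 TPM) and Ndufb8 (645 and 555 TPM). The value of Ndufb4 is uncertain, because an identical coding sequence lies elsewhere in the genome, as described with the pseudogene copies.

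Complex II, succinate dehydrogenase, also serves the citric acid cycle. Sdhb, the iron-sulphur subunit, was its highest gene at 411 and 383 TPM. The membrane anchor genes Sdhc (258 and 239 TPM) and Sdhd (224 and 202 TPM) came next, and Sdha, the flavoprotein that oxidises succinate, was lowest at 159.7 and 171 TPM. The 4 levels kept this order in both libraries. Sdha alone among them had more TPM in replicate 2.

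In complex III the small subunits led. Uqcrq reached 651 and 628 TPM, Uqcr11 626 and 552 TPM, and Uqcr10 532 and 449.8 TPM. Uqcrb stood at 427 and 409 TPM, and Uqcrh, the hinge protein that meets cytochrome c1, at 416 and 362 TPM. The core protein gene Uqcrc1 had 404 and 393 TPM, and the other core protein gene, Uqcrc2, had 197 in each. Uqcrfs1, the Rieske iron-sulphur protein, lay between them with 256 and 252 TPM. The haem-carrying subunit gene Cyc1, whose symbol the rule does not match, had 353 and 327 TPM.

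Complex IV, cytochrome c oxidase, takes 1 form of each nuclear subunit. Cox6b1, on the side facing cytochrome c, was highest with 1303 and 1126 TPM, and Cox4i1, a regulatory subunit, and Cox8a had 1029 and 979.8 TPM and 1063 and 934 TPM. Cox6a1 (1017 and 859.7), Cox6c (906 and 918), Cox5a (767 and 723), Cox5b (658 and 573), Cox7c (584 and 539) and Cox7b (364 and 332 TPM) followed. Summed over the forms that fill one subunit position, levels ran from 348 ± 22.3 TPM for position 7B to 1226 ± 129 TPM for position 6B.

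Atp5b, the catalytic beta subunit of the F1 head of ATP synthase, had the highest level of all 84 genes, 1837 and 1849.6 TPM, and lay above 99.87% of protein-coding genes. Atp5a1, the alpha subunit of the same head, had 666 and 747 TPM. The stalk genes of F1 were Atp5c1 (gamma, 517 and 501 TPM), Atp5d (delta, 411 and 386 TPM) and Atp5e (epsilon, 706 and 649 TPM). The peripheral stalk genes Atp5h (802 and 763), Atp5j (688 and 615), Atp5o (599 and 607) and Atp5f1 (471 and 480.3) had a median of 627 ± 22.5 TPM. Among small membrane subunits Atp5mpl had 709 and 599.45, Atp5j2 493 and 438, Atp5k 354 and 319, and Atp5l 203 and 199 TPM. The lowest were Atp5s, a coupling factor that is no part of the core enzyme (20.15 and 18.46 TPM), Atp5g2 (127 and 119.5 TPM) and Atp5l, the last of them uncertain for the reason given next.

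For 5 of the subunit genes, close processed pseudogenes were assigned a large share of the TPM. Processed pseudogenes are copies of a messenger RNA written back into the genome, so they can share the whole coding sequence with their source gene. Of the 84 genes, 44 shared at least 1 window of 50 bases, on either strand, with another gene's transcripts and 7 shared over 50% of their windows. The other genes include protein-coding genes and non-coding RNAs as well as pseudogenes, and 28 of the 84 shared windows with a pseudogene. In 5 the pseudogenes summed to at least 10% of the gene's own TPM in both libraries. For Atp5l (chr9:44912557-44920742) and its copy Gm10221 (chr5:24581554-24581862), all 309 coding bases that align were identical. The copy was assigned 825 and 736 TPM, 80.2% and 78.7% of the TPM of both, so that gene and copy together reached 1028 and 936 TPM. For Ndufb4 (chr16:37647170-37654453) and Ndufb4c (chr15:73809507-73809896) all 390 coding bases were identical, and the copy held 86.4% and 85.5% of their joint 400.3 and 369.9 TPM. For Atp5g2 (chr15:102662864-102672352) and Gm10175 (chr7:23946646-23947290) all 441 were identical, and the copy held 62.9% and 61.7% of 343 and 312 TPM. Cox7c (chr13:86044816-86046904) and Gm12338 (chr11:75599763-75599954) shared all 192 coding bases. Gm12338 held 42.9% and 41.1% of 1022 and 916 TPM on 827 and 524 counts, over an annotated length of 192 bases. Coordinates here are GRCm38.

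The identical and near-identical stretches show what a read would have to tell apart. Below are the opening 90 coding bases of Ndufb4, which are the same letter for letter in Ndufb4c, and of Atp5l, which are the same in Gm10221. The last 90 coding bases of Atp5g1 (chr11:96068852-96075670) and of its copy Gm10039 (chr11:100361716-100362126) follow, with the only base that differs over 411 coding bases in capitals. All are given 5′ to 3′ from GENCODE release 21 transcripts.
Ndufb4 and Ndufb4c: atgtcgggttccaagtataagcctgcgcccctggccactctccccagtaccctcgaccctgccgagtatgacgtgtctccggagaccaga
Atp5l and Gm10221: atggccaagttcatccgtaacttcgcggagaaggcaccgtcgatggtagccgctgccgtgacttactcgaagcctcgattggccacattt
Atp5g1: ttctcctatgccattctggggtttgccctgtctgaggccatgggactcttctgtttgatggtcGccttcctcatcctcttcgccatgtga
Gm10039: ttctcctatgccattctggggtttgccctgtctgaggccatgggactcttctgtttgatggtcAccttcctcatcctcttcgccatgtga

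Gm10039, with its single difference, was assigned 191 and 202 TPM, 18.4% and 22.5% of the TPM of both. For Atp5l, Ndufb4, Atp5g2 and Cox7c the aligned coding bases cannot tell gene from copy. Gm10221, Ndufb4c and Gm12338 are annotated over those bases alone, so no annotated base of these copies tells them from the gene. Gm10175 runs beyond them, and 596 of the 682 windows of Atp5g2 occur in it. The own levels of Atp5l, Ndufb4, Atp5g2 and Cox7c are therefore uncertain. So are the joint levels, because the copies are shorter than the genes and a read assigned to a copy adds more TPM. If all counts of the copy are given to the gene at the gene's length, Atp5l has 849.9 and 777 TPM, Ndufb4 242 and 241, Atp5g2 295 and 269, and Cox7c 684 and 624 TPM. These lie above the gene's own TPM and below the joint TPM in both libraries. With the TPM of all pseudogene copies added, a step chosen after seeing the data like the one before, the median of complex V was 638 TPM and that of complex I 282 TPM.

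**Figure D2:**
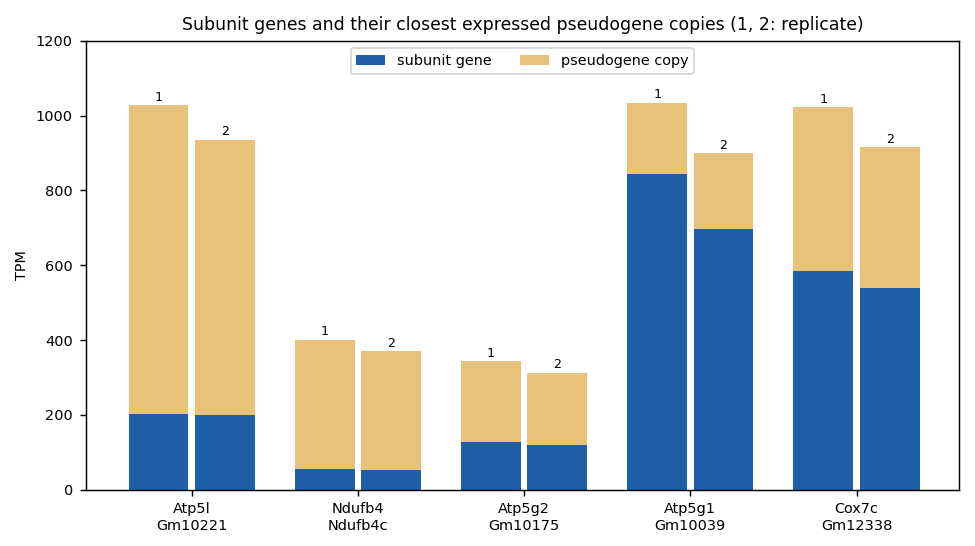
TPM of 5 subunit genes (blue) with the pseudogene copy that drew the most TPM stacked on each (tan), in replicate 1 and replicate 2. The copy is the larger segment for Atp5l, Ndufb4 and Atp5g2 in both libraries, and the smaller for Atp5g1 and Cox7c.

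In all 11 pairs of paralogous forms compared, the reference form led in both libraries. The reference is the widely expressed form where the other form belongs to particular tissues or to low oxygen. In the pairs of Cox7a2 with Cox7a2l and of Atp5g3 with Atp5g1 and Atp5g2 it is only a label. The lead in those pairs is no tissue-type result. Cox4i1 exceeded Cox4i2, the form known from lung and low oxygen, by 291-fold and 329-fold; Cox4i2 had 3.54 and 2.98 TPM on 45 and 28 counts. Ndufa4 exceeded Ndufa4l2, which is induced by low oxygen and marks pericytes, by 137-fold and 132-fold. On log2(TPM + 1) the difference of this pair was 6.91 ± 0.06 and that of the Cox4 pair 7.89 ± 0.08. Of 8 pericyte markers 2 were 1.5-fold or more higher in replicate 2 and 1 lower, and most of the rise in their sum was Vtn (73.4 and 188 TPM). Higd1b, the 1 lower by that fold, had 8.14 and 4.10 TPM, while the median log2 ratio of the 8 was 0.28. Cox4i2 and Ndufa4l2 were lower in replicate 2, as most subunit genes were. The 95% intervals of their count ratios, replicate 2 to replicate 1, include 1 (0.47 to 1.29 and 0.60 to 1.01). The part of pericytes in either level was not tested. Among 14 genes induced by low oxygen, Ldha had 338 and 392.45 TPM, Pgk1 203 and 205, and Car9 0 and 0.04, and 13 reached 1 TPM in both libraries.

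Of the muscle forms of complex IV, Cox6a2 and Cox8b were under 1 TPM in both libraries, and Cox7a1 was detected at a low level. Cox6a2 had 0.62 and 0.12 TPM on 7 and 1 counts, for which exact Poisson 95% intervals run from 0.248 to 1.27 TPM and from 0.00303 to 0.666 TPM. Cox8b had no count in replicate 1 and 1 count in replicate 2 (0.25 TPM, interval 0.00643 to 1.415). Cox7a1, also made in heart, skeletal muscle and brown fat, had 4.10 and 5.29 TPM on 22 and 21 counts. Cox6a1 was 1640.1-fold above Cox6a2 in replicate 1, Cox8a at least 1889-fold above Cox8b in replicate 1 by a floor of 3 counts in that library, and Cox7a2 126-fold and 85.2-fold above Cox7a1. The skeletal muscle markers were low, with Acta1 at 18.02 and 7.36 TPM, and their sum was lower in replicate 2. Cox6a2 had less TPM in replicate 2 and Cox7a1 more. The 95% intervals of their count ratios, replicate 2 to replicate 1, include 1 (0.0040 to 1.41 and 0.63 to 2.31). Of 8 heart markers 2 reached 1 TPM in both libraries and Myl7 had no count. Of 8 brown fat markers 1 did, with Ucp1 at 0.35 and 0.09 TPM and Elovl3 and Adipoq at no count. The part of these tissues in the muscle forms was not tested.

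The testis forms differed from each other. Cox8c had no count in either library, where 3 counts would have been 0.393 and 0.532 TPM, so Cox8a was at least 2707-fold and 1757-fold higher by that floor in each library. Cox7b2 had 1 and 3 counts (0.11 and 0.45 TPM, intervals 0.00282 to 0.621 and 0.0933 to 1.32 TPM). Cox6b2, by contrast, had 14.0 and 8.91 TPM on 112 and 52 counts, and Cox6b1 exceeded it 92.8-fold and 126-fold. Of 8 male germ cell markers 4 had no count in either library, among them Prm2 and Tnp1, and Tekt1, also a gene of motile cilia, had 6.98 and 4.51 TPM. Cytochrome c followed the same division, with the somatic gene Cycs at 67.6 and 66.7 TPM and the testis gene Cyct at 2 and 1 counts.

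In the remaining sets several forms were used side by side. Cox7a2 had 515 and 450.5 TPM, and Cox7a2l, a relative described as joining complexes III and IV into supercomplexes, had 161 and 171 TPM. Cox7a2 was therefore 3.19-fold and 2.64-fold higher. Whether the Cox7a2l protein has that role in these animals was not tested. The genes Atp5g1, Atp5g2 and Atp5g3 encode the same mature c-ring protein with different targeting peptides. Atp5g3 had 991 and 924 TPM, Atp5g1 844 and 697 TPM, and Atp5g2 127 and 119.5 TPM. The lead of Atp5g3 over Atp5g1 was 1.17-fold and 1.33-fold (0.32 ± 0.12 on log2(TPM + 1)). With the TPM of pseudogene copies added it did not hold in both libraries, as Atp5g1 and Gm10039 together had 1034 TPM in replicate 1. Of the 11 pairs, 10 were then led by the reference form. With the counts of Gm10039 given to Atp5g1 at its own length, Atp5g1 had 958 and 818 TPM, below Atp5g3. All 11 pairs were then led by the reference form.

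**Figure D3:**
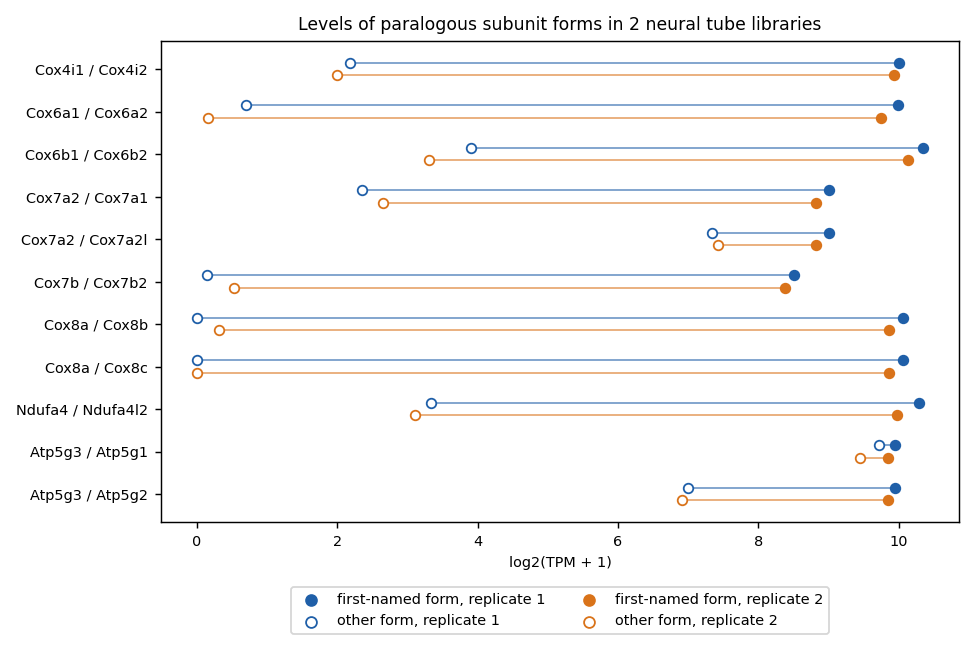
Levels on log2(TPM + 1) of 11 pairs of paralogous forms. Filled circles are the reference form named first, open circles the other form, blue replicate 1 and orange replicate 2. The Atp5g3 and Atp5g1 circles lie closest together, and those of Cox8a and Cox8c are farthest apart in replicate 2, level in replicate 1 with Cox8a and Cox8b.

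Which transcripts held a gene's TPM differed among the genes. In 7 of the 84 the top transcript, by share of TPM, was not annotated as protein-coding. The same share over all protein-coding genes was not computed, so whether this is unusual cannot be said. The same 7 had over 50% of their TPM outside protein-coding transcripts in both libraries: Ndufa5 (89.0% and 87.8%), Ndufa10 (85.3% and 86.2%), Atp5j (66.7% and 62.1%), Ndufb4 (66.2% and 75.1%), Atp5f1 (65.1% and 67.9%), Cox5b (60.9% and 62.6%) and Cox7b (59.8% and 61.3%). These are annotated as retained introns in Ndufb4, Cox7b and Atp5j, where Atp5j-208 held 61.5% and 57.0%. They are processed transcripts without an annotated reading frame in Ndufa5 and Cox5b. In Atp5f1 the top transcript, with 63.0% and 65.7%, is annotated as a target of nonsense-mediated decay. A share of TPM is not a share of reads, as each read on a short transcript adds more TPM. The coding transcript Cox5b-204 had 3861 and 2218.5 counts, more than the 2086 and 1371 of the top transcript Cox5b-205. Cox7b and Ndufa10 had this order of counts too, while Ndufa5, Atp5f1 and Atp5j had the opposite. Transcripts of a gene overlap, so the split between them is an estimate. For Ndufb4 the split also depends on the pseudogene copy Ndufb4c, which was assigned 2040 and 1377 counts. The coding transcript Ndufb4-201 had 325 and 175 counts and the retained-intron transcript Ndufb4-202 267 and 221. Restricted to coding transcripts, the level of Ndufa5 was 42.2 and 45.0 TPM, against 385 and 370.1 TPM for the whole gene.

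**Figure D4:**
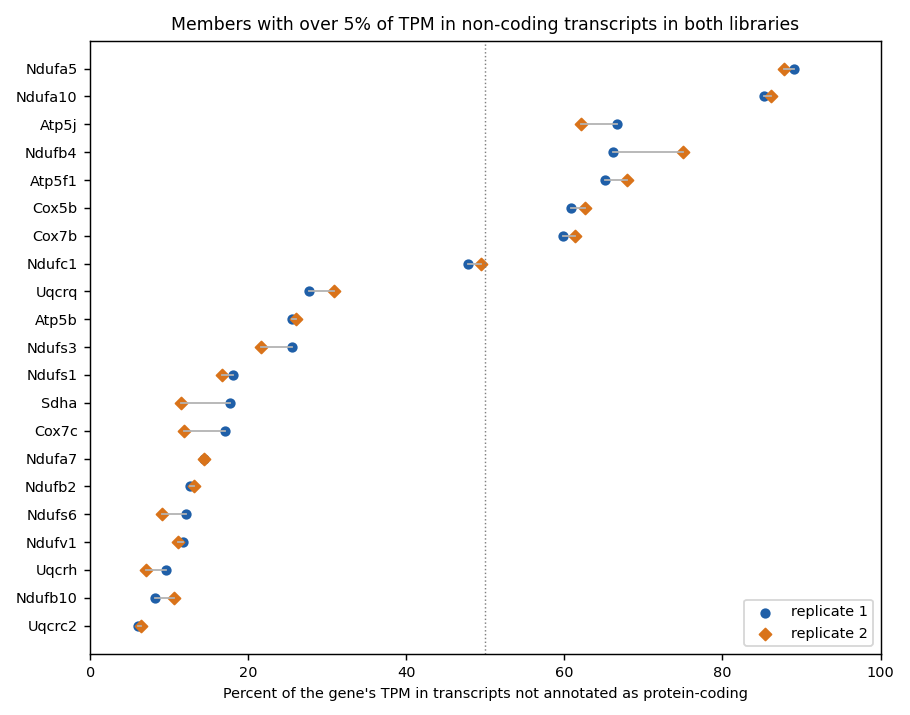
Percent of each gene's TPM in transcripts not annotated as protein-coding, for 21 genes above 5% in both libraries; circles are replicate 1, diamonds replicate 2, and the dotted line marks 50%. Ndufa5 and Ndufa10 lie above 80% and 5 further genes above 50%, while Ndufc1 lies just below it at 47.8% and 49.5%.

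Atp5c1 and Ndufv3 have known tissue-type splice forms. Atp5c1 (chr2:10056016-10080510) carries an exon of 37 bases, chr2:10056770-10056806, that most tissues include and that heart and skeletal muscle skip. The transcript with the exon, Atp5c1-203, held 89.2% and 93.8% of the gene's TPM, and Atp5c1-201 without it 7.30% and 4.03%. The 2 coding sequences share 891 bases and then end differently, as shown by their last 30 shared bases in lower case and their own end, stop codon included, in capitals (5′ to 3′).
Atp5c1-203: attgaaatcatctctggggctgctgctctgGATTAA
Atp5c1-201: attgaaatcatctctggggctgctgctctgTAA

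Ndufv3 is spliced to a short form and to a long form with 1 further exon of 1092 bases. The short form Ndufv3-202 held 94.5% and 92.6% and the long form Ndufv3-201 4.69% and 6.32%. In both genes one form predominated in each library. The minor form Atp5c1-201 had 37.7 TPM in replicate 1 and 20.2 TPM in replicate 2, on 734 and 291 counts. The minor form Ndufv3-201 had 19.4 and 22.2 TPM on 565 and 479 counts.

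The promoters were searched for short motifs because nuclear respiratory factor 1 (NRF1), the ETS factor GABP and YY1 are known regulators of these genes. RefSeq promoter sequences of 250 bases before to 50 after the start were found for 66 of the 84 genes (build GRCm38.p6). The letters searched on both strands were GCGCATGC for NRF1, CCGGAAG for ETS factors and AAGATGGCG for YY1. The NRF1 letters were in 10 of the 66 (15.2%), against 2.83% of 27025 promoters and 5.63% of the 10198 of coding genes at 1 TPM in both libraries. The ETS letters were in 15 (22.7%), against 9.24% and 18.1%, and the YY1 letters in 6 (9.09%), against 1.51% and 3.24%. Of the 66, 26 held at least 1 of these and 40 none, with median levels of 325 and 390.0 TPM. A match here is a description of the letters and not a binding site. The genes with both NRF1 and ETS letters were Atp5k, Atp5l, Cox6a1, Sdhb and Uqcr11. The stretches around the matches before the RefSeq start of Atp5l, Cox6a1 and Sdhb are shown 5′ to 3′ on the gene's strand, with the matches in capitals, overlapping ones joined; the ETS letters of Sdhb lie after that start and are not shown. GENCODE release 21 places the transcript start 68 bases from the RefSeq one in Sdhb and 23 in Cox6a1, so the Sdhb stretch and the ETS end of the Cox6a1 stretch lie inside the gene as GENCODE annotates it.
Atp5l, chr9:44920938-44920992, minus strand: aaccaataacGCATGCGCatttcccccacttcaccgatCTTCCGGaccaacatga
Cox6a1, chr5:115348959-115349130, minus strand: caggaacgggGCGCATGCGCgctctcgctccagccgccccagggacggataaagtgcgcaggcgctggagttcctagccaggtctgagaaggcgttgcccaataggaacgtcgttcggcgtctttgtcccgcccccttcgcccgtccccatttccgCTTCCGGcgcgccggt
Sdhb, chr4:140961207-140961234, plus strand: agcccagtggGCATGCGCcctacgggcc

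The regulator genes themselves were expressed far below the subunit genes. All 11 reached 1 TPM in both libraries, with a median of 17.875 ± 1.79 TPM. Tfam, the packaging protein of mitochondrial DNA, had 37.35 and 36.7 TPM, and Gabpb1, a GABP subunit, 30.7 and 38.5 TPM. Nrf1 had 26.6 and 33.7 TPM, Ppargc1a, the coactivator of mitochondrial biogenesis, 17.85 and 18.1 TPM, and Perm1 was lowest at 1.78 and 2.34 TPM.

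Assembly factors, which build the complexes without staying in them, were expressed at lower levels than the subunits. Of 49 listed, 48 had a row and 47 reached 1 TPM in both libraries, with a median of 36.3 ± 0.955 TPM. Uqcc2 (complex III) was highest with 276 and 236 TPM, followed by Higd2a and Coa3 of complex IV with 234 and 201 TPM and 205 and 198 TPM. The highest of complex I were Ndufaf3 (77.05 and 66.9) and Ndufaf2 (61.6 and 52.9) and the lowest Nubpl, an iron-sulphur carrier (4.82 and 6.07 TPM). Complex II factors ran from Sdhaf3 (6.58 and 6.81) to Sdhaf2 (26.5 and 26.2) and Sdhaf4 (85.5 and 79.8), and other complex III factors from Lyrm7 (11.7 and 9.19) to Uqcc1 (53.4 and 59.3). The complex V factors Atpaf1, Atpaf2 and Tmem70 lay at 35.8 and 33.6, 36.0 and 35.9, and 53.5 and 56.65 TPM. Pet117 was listed at 0 in both.

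The 13 subunit genes of mitochondrial DNA summed to 32709.5 and 33280.4 TPM, 0.914 and 1.01 times the sum of the 84 nuclear genes (35803 and 33017). They were led by mt-Atp6 (7603 and 7716 TPM) and mt-Atp8 (6648 and 6928 TPM), which overlap and cannot be separated cleanly, and the lowest was mt-Nd4l (78.4 and 50.9 TPM). Further nuclear subunits and regulators with other symbols were Atpif1, the inhibitor of ATP synthase (1369 and 1324 TPM), Ndufab1, the mitochondrial acyl carrier protein (578 and 599 TPM), and Higd1a (62.3 and 56.3 TPM).

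Between the libraries the subunit genes moved little and mostly one way. Of the 80 with a mean count of at least 10, none was 1.5-fold or more higher in replicate 2, against 10.8% of 17623 genes tested, and 1 was 1.5-fold or more lower, against 8.44%. The genes tested were not matched to the subunit genes for level, and ratios of small counts spread more widely. The part of count level in these shares was not tested. The median log2 ratio of replicate 2 to replicate 1, scaled by TMM, was -0.20, and 74 of 80 lay below 0 (92.5%), against a median of -0.0024 and 50.4% over all genes tested. Scaling by spike-ins adds 0.54 to every log2 ratio: the median of the 80 was then 0.34 and 79 lay above 0, while the median of all genes was 0.54. Relative to the median gene the subunit genes were lower in replicate 2, a gap that a shift of every gene cannot change. The direction by itself depends on the scaling. No interval for the difference between animals can be had from 1 pair of libraries.

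Cox6b2 was the gene past 1.5-fold. Its 112 and 52 counts gave 1.70-fold less in replicate 2, with an exact Clopper-Pearson 95% interval from 1.21-fold to 2.41-fold that covers counting error only. The next largest falls were Ndufa3 (log2 ratio -0.44), Ndufa4 (-0.41) and Atp5g1 (-0.37). Genes with a ratio above 0 under TMM included Cox7a1 (0.27), Sdha (0.10), Atp5a1 (0.07), Ndufs1 (0.04) and Ndufa9 (0.02). Cox7a1 rests on 22 and 21 counts. Of the 47 assembly factors tested none was 1.5-fold apart in either direction, and of the 13 mitochondrially encoded genes mt-Nd4l was, at a log2 ratio of -0.71.

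By complex the median log2 ratio ran from -0.27 in complex IV (14 genes) through -0.21 in complexes I and II and -0.19 in complex V to -0.17 in complex III. The ratio moved with transcript length. Over the 80 genes, log2 ratio against log2 effective length correlated with r = 0.40 (Pearson) and rho = 0.42 (Spearman). Over 14766 protein-coding genes r was 0.072 and rho 0.15. Below 600 bases the median log2 ratio was -0.23 in 42 subunit genes and -0.13 in 384 coding genes. From 600 to 1200 bases it was -0.19 (24 genes) and -0.07 (1739 genes), and from 1200 bases -0.09 (14 genes, a thinly filled bin) and 0.04 (12643 genes). In each length class the median of the subunit genes lay below that of the coding genes. Among the lists of surrounding tissue, the meningeal list was at a median log2 ratio of 4.11, the ganglion list at 5.77, the endothelial list at 1.09, the microglial list at 0.63 and the pericyte list at 0.28. The neuron list stood at -0.12, the progenitor list at 0.44, the erythroid list at -0.19 and the skeletal muscle list at -1.05. Members of a list did not all move with its median. In the erythroid list 2 genes were 1.5-fold or more higher in replicate 2 and 0 lower, with Hbb-y at 196 and 1126 TPM. In the neuron list 1 was higher by that fold and 0 lower. The part of tissue makeup and of transcript length in the lower ratio of the subunit genes was not tested.

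**Figure D5:**
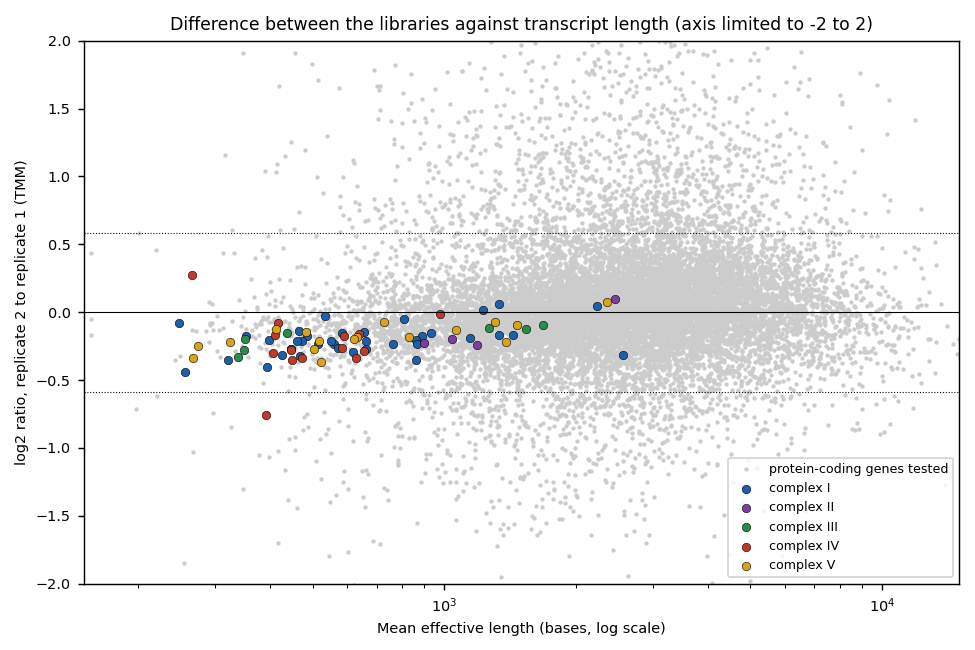
Log2 ratio of replicate 2 to replicate 1 (TMM) against mean effective length in bases on a log axis, for 80 subunit genes coloured by complex and for protein-coding genes in grey, with the axis limited to -2 to 2. Dotted lines mark 1.5-fold; Cox6b2 is the red point below the lower line, and the genes above 0 are mostly at over 1200 bases, with Cox7a1 the short exception.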

How the data were processed

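Total RNA-seq of 2 neural tube libraries was deposited as a gene table and a transcript table per library, on mm10 with GENCODE release 4 of mouse, per the deposited texts. No aligner, quantifier or strand setting is given in the sources used here. Expected counts are estimated reads that were deposited without normalisation, per the file headers. TPM and posterior mean TPM were scaled by the authors over all rows with the spike-ins, and FPKM was deposited as a value per length and depth. The percent columns deposited with the transcripts give a transcript's share of its gene. Score columns, deposited as bounds of TPM, were left out. Symbols, types and coordinates came from GENCODE release 21 (GRCm38).

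Levels are TPM as deposited. Counts were rounded, and log2 ratios used TMM scaling (edgeR 4.0.16 in R 4.3.3), a prior count of 0.5 and a mean count of at least 10. Exact 95% intervals and the 3-count floor cover counting error alone, as amplified reads are not independent molecules. The ratio step was tested on simulated data. Sequence sharing is the share of 50-base windows of a gene's highest coding transcript that occur, on either strand, in other genes' transcripts. Coding sequences were aligned with Biopython 1.88, and Python 3.11.15, pandas 2.3.3, NumPy 2.4.6, SciPy 1.17.1 and matplotlib 3.10.9 served elsewhere. Alternatives used DESeq2 1.42.0 size factors, spike-ins, posterior mean TPM, FPKM, other pseudocounts and thresholds, and each library alone. The naming rule uses no measured value, but this set of genes and the lists were chosen with earlier results of these data known. Named by rule were catalytic subunits, the 3 highest and 3 lowest of each complex, all paralogues, genes under 1 TPM or 1.5-fold apart, and the 2 highest and the lowest of each pathway list. Other named genes, the pseudogene copies and the splice forms were chosen after their values were seen. The labels do not say clearly whether embryos were pooled, so the spread may be partly technical. A gene is not reported here by name or in the labelled plots, though counts, medians and sums include it.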

Additional observations from a re-analysis of the deposited data

Results flagged for a closer look

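Cox6c2, a processed pseudogene whose symbol fits the naming pattern but which is not protein-coding, lies outside the 84 genes and still gave a signal in both libraries. It stood at 9.42 TPM in replicate 1 and 9.05 TPM in replicate 2, above a floor of 3 counts. Cox6c shares 21.15% of its 50-base windows with it.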

How the results depend on the processing

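The median log2 ratio of the subunit genes reversed from -0.20 to 0.34 under spike-in scaling, because that scaling shifts every gene. DESeq2 size factors, log2(TPM + 1), no filter and a minimum mean count of 100 left it negative (-0.20, -0.11, -0.20 and -0.20). Genes 1.5-fold higher in replicate 2 numbered 0, with 5 under spike-ins and 2 without a filter. Genes lower numbered 1, with 12 at a lower and 0 at a higher fold, 0 under spike-ins and 2 without a filter. The share over all genes was computed at the main setting only, so the other counts are no result about the subunit genes. Under spike-ins the median log2 ratio of all genes tested was itself 0.54. Median TPM moved by more than the spread of the 2 libraries in these cases. TPM rescaled over nuclear protein-coding genes gave 351.3, 294, 523, 529 and 762 for complexes I to V. Posterior mean TPM gave 268 for complex I and 581 for complex V. Means over genes gave 319.7, 256 and 598.5 for complexes I, II and V and 52.9 for assembly factors. Complex IV gave 588 with its detected genes alone. Added after seeing the data, coding transcripts alone gave 265, 201 and 509 for complexes I, IV and V, and pseudogene copies gave 282 and 638 for complexes I and V. Complex V had an SD under 1 TPM, so any change exceeds it. Leaving out either replicate returns the value of the other library and is no check of stability. All 11 paralogue pairs were led by the reference form with posterior mean TPM and FPKM, and 10 with the TPM of pseudogene copies added. No paired analysis was possible because the 2 libraries form 1 group. Depth limits the genes under 10 counts (Cox6a2, Cox7b2, Cox8b, Cox8c).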
